A study of Mus musculus with 21 samples.

Results

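The 43 genes described here encode the DNA replication machinery, the proteins that license origins, unwind DNA, copy both strands and supply deoxynucleotides. They were chosen by symbol, as all probes of the array's annotation that name a member, which gave 85 of 45281 probes. Of these, 75 were detected on at least 3 of the 21 arrays and left 41 of the 43 genes for testing, among 11649 genes in all. Pola1 and Pole2, subunits of polymerases alpha and epsilon, had no probe that passed this filter and have no value here. Of the 41 tested members, 37 were detected on all 21 arrays. The others were Orc2 (16 arrays), Prim1 (18), Pole (19) and Orc3 (20).

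RNA was read on single-colour Illumina bead arrays from 7 groups of 3 mouse samples. Epiblast-like cells (EpiLC), which stand for the post-implantation epiblast, were naive embryonic stem cells kept for 2 days with activin A and FGF2. PGCLC, primordial germ cell-like cells, were sorted as SSEA1+ and CD61+ at day 6 from EpiLC aggregates given LIF, EGF, SCF, BMP8a and BMP4. Both cell types were made from wild-type E14Tg2a cells (WT), from an Otx2-/- line carrying GFP and lacZ at the Otx2 alleles (Otx2-null), and from an Otx2-/-; Blimp1-/- line (Otx2/Blimp1-null), which also carries the Otx2 alleles of the Otx2-null line. The seventh group was SSEA1+ CD61+ cells from Otx2-null aggregates kept to day 6 in basal medium with no cytokine. Otx2 is a homeodomain factor of the epiblast, and Blimp1, encoded by Prdm1, is a repressor needed for germ cell specification. The labels name 1 line per genotype, so genotype and line cannot be told apart, and they do not say that replicates were separate cultures, so a p-value covers the spread among these 21 samples alone. EpiLC and day-6 cells also differed in medium, in aggregation and in sorting, which cannot be told apart from the change of cell type.

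Replication starts where the origin recognition complex (Orc1 to Orc6), with Cdc6 and Cdt1, loads the ring helicase Mcm2 to Mcm7 onto DNA before S phase. Cdc45, the GINS complex (Gins1 to Gins4) and Mcm10 turn that ring into the active helicase. Primase and polymerase alpha then lay primers, Rfc1 to Rfc5 load the Pcna clamp on which polymerases delta and epsilon run, Rpa1 to Rpa3 coat single strands, and Fen1 and Lig1 join the lagging-strand fragments. E2F factors drive many of these genes at the start of S phase in cycling cells. Pluripotent cells cycle fast, and in the embryo mouse germ cell precursors slow their cycle after specification.

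RefSeq promoters were on hand for 36 of the 43 members (assembly GRCm38.p6, 250 bases before to 50 after each gene's start). Letters of the E2F type, namely TTTCCCGC, TTTGGCGC, TTTCGCGC or TTTGCCGC on either strand, with overlapping matches counted apart, occurred in at least 1 promoter of 15 of those 36 genes (41.7%). The share was 4.55% among the 9410 tested genes with a promoter and 2.6% among all 27025 genes of the table. The letters were present in 5 of 11 members that rose in WT PGCLC, in 2 of 13 that fell and in 6 of 10 whose change did not pass the test, the remaining genes with the letters being Pola1 and Pole2. CCAAT on either strand was found in 63.9% of the members and 43% of the tested genes. Such a match describes letters and shows no binding. The promoters of 3 members that rose in WT PGCLC (Cdt1, Mcm5, Mcm6) and of the 2 that fell with such letters (Rfc3, Pold3) are printed because they carry the same kind of letters on genes that moved in opposite directions. They are written 5′ to 3′ in the direction of the gene, with the E2F-type letters in capitals. Cdt1 is a licensing factor, Mcm5 and Mcm6 are ring subunits, Rfc3 is a clamp loader subunit and Pold3 a subunit of polymerase delta.
Cdt1 (chr8:122567765-122568064, plus strand): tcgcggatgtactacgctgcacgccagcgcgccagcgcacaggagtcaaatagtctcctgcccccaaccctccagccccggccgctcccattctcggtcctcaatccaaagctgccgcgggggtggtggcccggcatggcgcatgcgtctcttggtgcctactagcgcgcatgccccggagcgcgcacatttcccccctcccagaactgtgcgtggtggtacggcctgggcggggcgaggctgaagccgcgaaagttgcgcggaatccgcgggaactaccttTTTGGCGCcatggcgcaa
Mcm5 (chr8:75109259-75109558, plus strand): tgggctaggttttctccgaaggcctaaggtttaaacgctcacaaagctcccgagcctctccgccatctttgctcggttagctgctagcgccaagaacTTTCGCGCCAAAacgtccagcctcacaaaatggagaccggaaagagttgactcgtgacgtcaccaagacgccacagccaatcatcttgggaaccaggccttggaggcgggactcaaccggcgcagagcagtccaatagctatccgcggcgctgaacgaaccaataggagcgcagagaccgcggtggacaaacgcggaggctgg
Mcm6 (chr1:128359656-128359955, minus strand): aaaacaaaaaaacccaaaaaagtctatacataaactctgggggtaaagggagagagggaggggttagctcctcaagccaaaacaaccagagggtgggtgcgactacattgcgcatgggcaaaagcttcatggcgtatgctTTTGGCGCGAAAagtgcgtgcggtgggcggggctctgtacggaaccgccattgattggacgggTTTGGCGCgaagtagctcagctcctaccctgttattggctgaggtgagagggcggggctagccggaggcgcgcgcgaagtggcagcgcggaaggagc
Rfc3 (chr5:151651159-151651458, minus strand): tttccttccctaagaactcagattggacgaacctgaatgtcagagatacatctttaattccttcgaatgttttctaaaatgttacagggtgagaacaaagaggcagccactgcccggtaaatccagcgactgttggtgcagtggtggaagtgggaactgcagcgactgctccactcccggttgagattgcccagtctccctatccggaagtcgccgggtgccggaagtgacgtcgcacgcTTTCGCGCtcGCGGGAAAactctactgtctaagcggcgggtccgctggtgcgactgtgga
Pold3 (chr7:100121453-100121752, minus strand): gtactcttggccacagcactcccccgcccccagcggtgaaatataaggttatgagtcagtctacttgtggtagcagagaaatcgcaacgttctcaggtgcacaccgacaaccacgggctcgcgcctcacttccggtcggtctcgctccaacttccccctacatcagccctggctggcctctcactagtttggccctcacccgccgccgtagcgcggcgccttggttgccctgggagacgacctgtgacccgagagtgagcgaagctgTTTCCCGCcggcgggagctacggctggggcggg

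In these windows Cdt1 had 1 match, Mcm5 had 2 overlapping matches, Mcm6 had 3, Rfc3 had 2 and Pold3 had 1. The promoters of Pcna, Rfc4 and Orc4, whose RNA fell in WT PGCLC, held none of these letters in their windows, and neither did those of Mcm2, Rfc1 and Rpa1, whose RNA rose.

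Across the 21 arrays, the number of detected probes was 14088 to 15861 in EpiLC and 15961 to 16507 in Otx2/Blimp1-null PGCLC. It was 17527 to 19556 in the other day-6 groups. The deposited intensities of 1 array, Otx2-null PGCLC replicate 2, were in another probe order and were put back by their rank in the authors' normalized column. Without that array 13 members were higher and 17 lower in Otx2-null induction, 4 and 2 in Otx2-null against WT PGCLC, 1 and 1 in cytokine-free cells against Otx2-null PGCLC, 4 and 2 in the difference of induction between Otx2-null and WT, 12 and 15 in that between Otx2/Blimp1-null and Otx2-null, and 13 and 13 in Otx2/Blimp1-null against Otx2-null PGCLC. The counts with it are given below. Mean correlations of arrays within a group ran from 0.983 to 0.992. The 8 germ cell genes used to check the sorted cells summed to 14.24 to 14.52 on the log2 scale in WT PGCLC, 13.37 to 13.65 in Otx2-null PGCLC, 14.13 to 14.39 without cytokines and 11.77 to 12.09 in Otx2/Blimp1-null PGCLC, against 9.7 to 10.91 in EpiLC. All 8 were tested, and among them Nanos3 and Prdm14 were not detected on any EpiLC array. Itgb3, which encodes the CD61 used in the sort, was not detected on the cytokine-free arrays. Fut4, which encodes an enzyme that can make SSEA1 but is not the only one, was not detected on the Otx2-null or Otx2/Blimp1-null PGCLC arrays. These RNA readings do not measure the surface markers of the sort. The 4 EpiLC markers summed to 11.17 to 11.29 in Otx2/Blimp1-null PGCLC, with Fgf5 not detected. They summed to 11.44 to 12.48 in the other day-6 groups and 13.77 to 14.67 in EpiLC. The 6 markers of naive pluripotency summed to 14.09 to 14.2 in Otx2/Blimp1-null PGCLC, 14.8 to 15.11 in the other day-6 groups and 9.13 to 10.83 in EpiLC. Markers of trophoblast and amnion, with 5 of 6 tested, summed to 10.77 to 11.44 in WT PGCLC and to at most 9.63 in every other group, and Cdx2 and Gata3 were detected only in WT PGCLC. Markers of blood and endothelium, with 4 of 6 tested, reached 9.45 to 9.78 in WT PGCLC, 8.22 to 8.66 in the Otx2-null day-6 groups and 7.7 to 7.97 in Otx2/Blimp1-null PGCLC. Mesoderm markers, with 3 of 8 tested, reached 7.38 to 7.54 in WT PGCLC and at most 6.79 elsewhere. Endoderm markers, with 4 of 7 tested, reached 7.48 to 8.27 in WT PGCLC and at most 7.12 elsewhere, and none of the 5 neural markers was tested. Genes expressed alike in these cell types cannot be assigned to one of them, and the part of such cells in the results below was not tested. The Otx2 probe was detected on every array, also of the lines without Otx2, and the 2 Prdm1 probes did not pass the detection filter, so the arrays do not check the genotypes.

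The first comparison asked how the replication genes differed between WT PGCLC and the WT EpiLC they were made from. In PGCLC, 13 of 41 members were higher and 17 lower by limma's moderated test (adjusted p under 0.05 over all genes). Of all 11649 genes, 35.4% were higher and 27.4% lower in this comparison, so change in both directions was not particular to the members. The members' median log2 difference was -0.10 and that of all genes 0.06, and the median size of the change was 0.77 for members and 0.65 for all genes. Arrays of both groups did not overlap for 34 members, against 66.3% of all genes. On the probes used, 5 of the 6 ring helicase subunits, the licensing factor Cdt1 and the lagging-strand enzymes lay on the higher side. With the mean of all kept probes, Mcm4 of the ring and the lagging-strand ligase Lig1 did not pass. The primase, most clamp loader subunits, the clamp and most of GINS lay on the lower side. In bulk RNA, fewer cells in S phase and less RNA per cell cannot be told apart. Values below are log2 signals of single arrays, or log2 differences with their standard error, from 3 arrays per group.

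**Figure D1:**
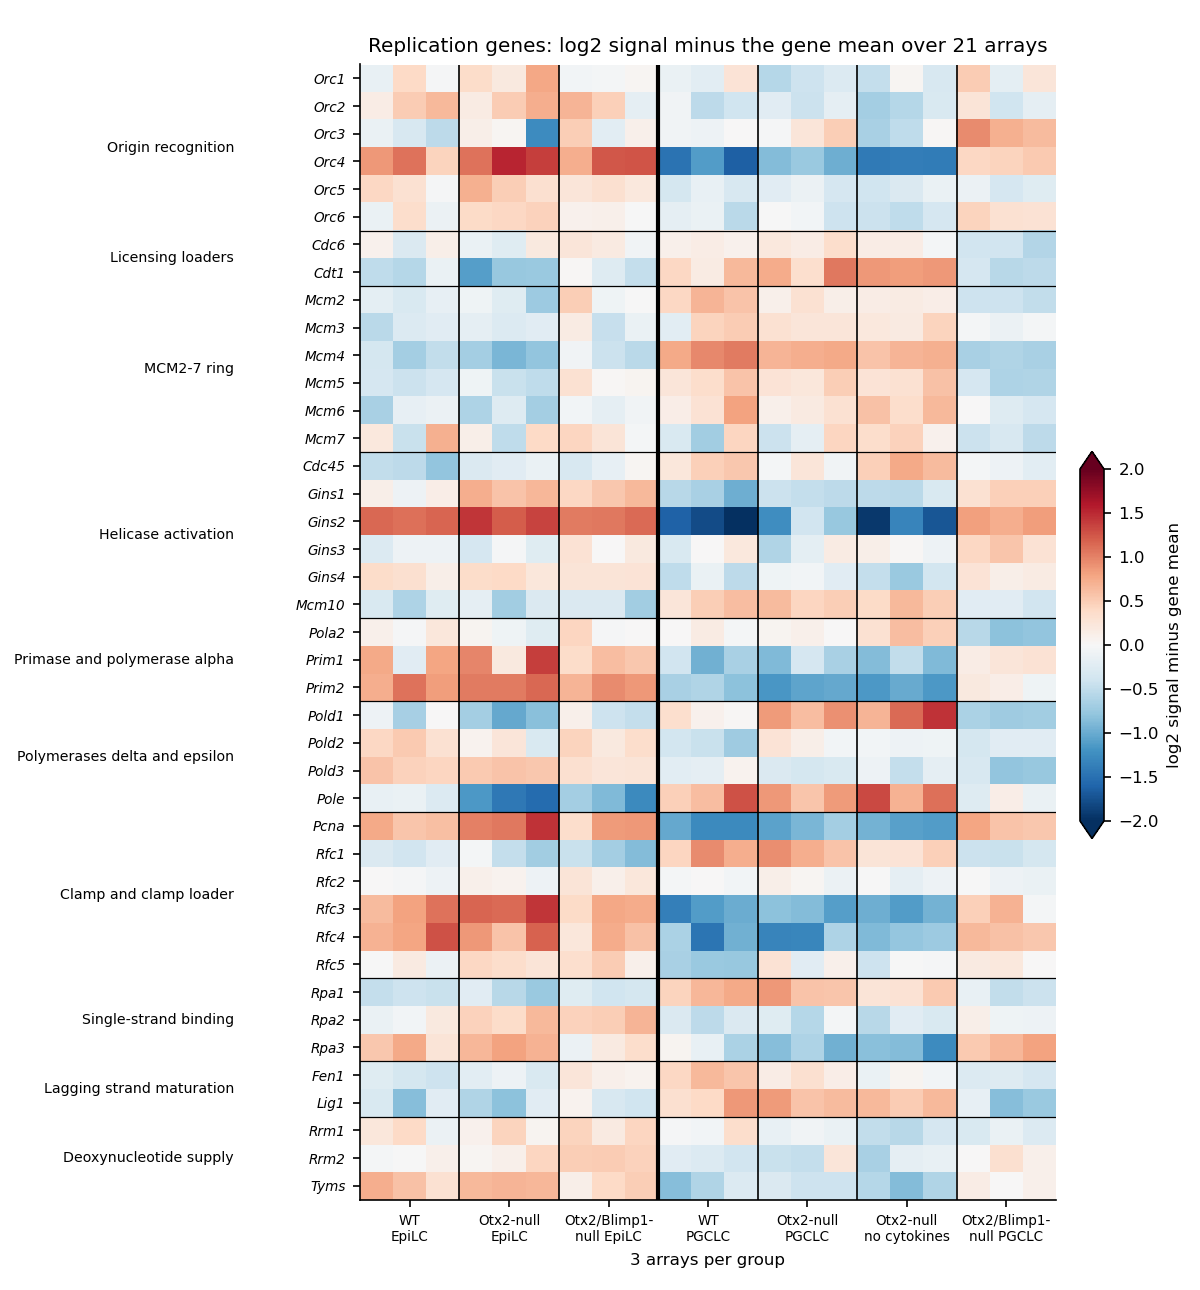
Log2 signal of each of the 41 tested replication genes on each of the 21 arrays, minus the mean of that gene over all arrays (colour, cut at 2 units), with genes in rows by role and arrays in columns by group. Mcm4 and Mcm6 are higher and Gins2, Orc4, Pcna, Rfc3 and Rfc4 lower on the WT and Otx2-null day-6 arrays than on all EpiLC arrays, while the Otx2/Blimp1-null PGCLC columns resemble the EpiLC columns for these genes.

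Of the ring helicase, 5 of the 6 subunits rose in WT PGCLC and Mcm7 did not pass the test. Mcm4, the subunit with the largest rise, read 12.18, 11.86 and 12.05 in WT EpiLC and 13.29, 13.50 and 13.57 in WT PGCLC. All PGCLC arrays lay above all EpiLC arrays, a difference of 1.42 ± 0.14 (2.68-fold, limma adjusted p = 5.48e-09). Averaged with 2 dim probes of Mcm4, the difference was 0.12 and did not pass. Mcm5 read 12.34, 12.25 and 12.33 in EpiLC and 12.91, 13.02 and 13.25 in PGCLC, again without overlap (0.75 ± 0.15, adjusted p = 0.000117). Mcm2, Mcm6 and Mcm3 rose by 0.78 ± 0.16, 0.72 ± 0.18 and 0.60 ± 0.17. Mcm7 ranged from 9.53 to 10.69 in EpiLC and from 9.28 to 10.40 in PGCLC, so the groups overlapped (-0.35 ± 0.28, 95% interval -0.94 to 0.24). Of the loaders, Cdt1 rose by 0.81 ± 0.18 (1.75-fold, adjusted p = 0.000469) and Cdc6 differed by 0.14 ± 0.15, which did not pass.

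Of origin recognition, 3 of 6 subunits fell and none rose. Orc4 read 8.03, 8.25 and 7.60 in WT EpiLC and 5.69, 6.04 and 5.53 in WT PGCLC. The groups stood well apart, and the log2 difference was -2.20 ± 0.18 (4.61-fold, adjusted p = 2.79e-10). Orc2 and Orc5 fell by 0.77 ± 0.21 and 0.51 ± 0.14. Orc2 was detected on 2 of the 3 WT PGCLC arrays (mean 5.01), near the detection floor. Orc1, Orc3 and Orc6 had differences of -0.10, 0.27 and -0.32 that did not pass.

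Helicase activation held both directions. Gins2, a GINS subunit, read 11.43, 11.38 and 11.45 in WT EpiLC and 8.66, 8.49 and 8.03 in WT PGCLC. Its difference of -3.03 ± 0.19 (8.16-fold, adjusted p = 3.9e-12) was the largest among the members in this comparison. Gins1 and Gins4 fell by 0.78 ± 0.14 and 0.66 ± 0.14, and Gins3 did not pass (0.13 ± 0.17). Cdc45, which binds the same ring, read 9.41, 9.39 and 9.11 in EpiLC and 10.13, 10.39 and 10.44 in PGCLC. It rose by 1.02 ± 0.14 (2.02-fold, adjusted p = 1.45e-06). Mcm10 rose by 0.83 ± 0.16 on the probe used, and a further probe of the gene moved the other way, as given below.

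The clamp and its loader split by subunit. Pcna, the sliding clamp, read 9.85, 9.64 and 9.68 in WT EpiLC and 8.07, 7.81 and 7.81 in WT PGCLC. It fell by 1.83 ± 0.16 (3.55-fold, adjusted p = 1.18e-09). Rfc3 fell by 2.00 ± 0.18, Rfc4 by 1.94 ± 0.22 and Rfc5 by 0.73 ± 0.16. Rfc1, the large subunit of the same loader, read 9.40, 9.31 and 9.47 in EpiLC and 10.13, 10.64 and 10.42 in PGCLC. It rose by 1.00 ± 0.17 (2.01-fold, adjusted p = 1.51e-05) with no overlap of arrays. Rfc2 differed by 0.01 ± 0.12 on the probe used, with a 95% interval of -0.24 to 0.26.

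The single-strand binding trimer split in the same way. Rpa1, the large subunit, read 12.36, 12.42 and 12.40 in WT EpiLC and 13.29, 13.51 and 13.60 in WT PGCLC. It rose by 1.07 ± 0.15 (2.1-fold, adjusted p = 1.35e-06). Rpa3, the small subunit, read 12.59, 12.81 and 12.31 in EpiLC and 12.11, 11.90 and 11.42 in PGCLC, a fall of 0.76 ± 0.18. Rpa2 fell by 0.37 ± 0.15 (adjusted p = 0.0404), a call that was lost when any of 4 single arrays of these groups was left out, with adjusted p of up to 0.17.

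Of the polymerases, the primase subunits fell, Prim2 by 1.57 ± 0.13 (2.97-fold, adjusted p = 5.71e-10) and Prim1 by 1.10 ± 0.26. In the authors' normalized values Prim1 differed by -0.08 and did not pass. Prim1 was detected on 2 of the 3 WT PGCLC arrays (mean 5.11), near the detection floor. Pola2, the accessory subunit of polymerase alpha, differed by -0.06 ± 0.14 and did not pass. Pole, the catalytic subunit of polymerase epsilon, rose by 0.97 ± 0.20 (adjusted p = 0.000211), while the polymerase delta subunits Pold2 and Pold3 fell by 0.93 ± 0.15 and 0.59 ± 0.14. Pold1, the catalytic subunit of polymerase delta, had a difference of 0.41 ± 0.20 that did not pass (adjusted p = 0.0789). Fen1, the flap nuclease, rose by 0.87 ± 0.12 and Lig1, the ligase, by 0.99 ± 0.21, where the mean over all kept Lig1 probes gave 0.12 and did not pass. Of deoxynucleotide supply, thymidylate synthase (Tyms) fell by 1.11 ± 0.16, and the ribonucleotide reductase subunits Rrm1 and Rrm2 had differences of -0.08 and -0.32 that did not pass. In 4 of the 10 roles members moved in both directions, in 3 only up and in 3 only down.

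**Figure D2:**
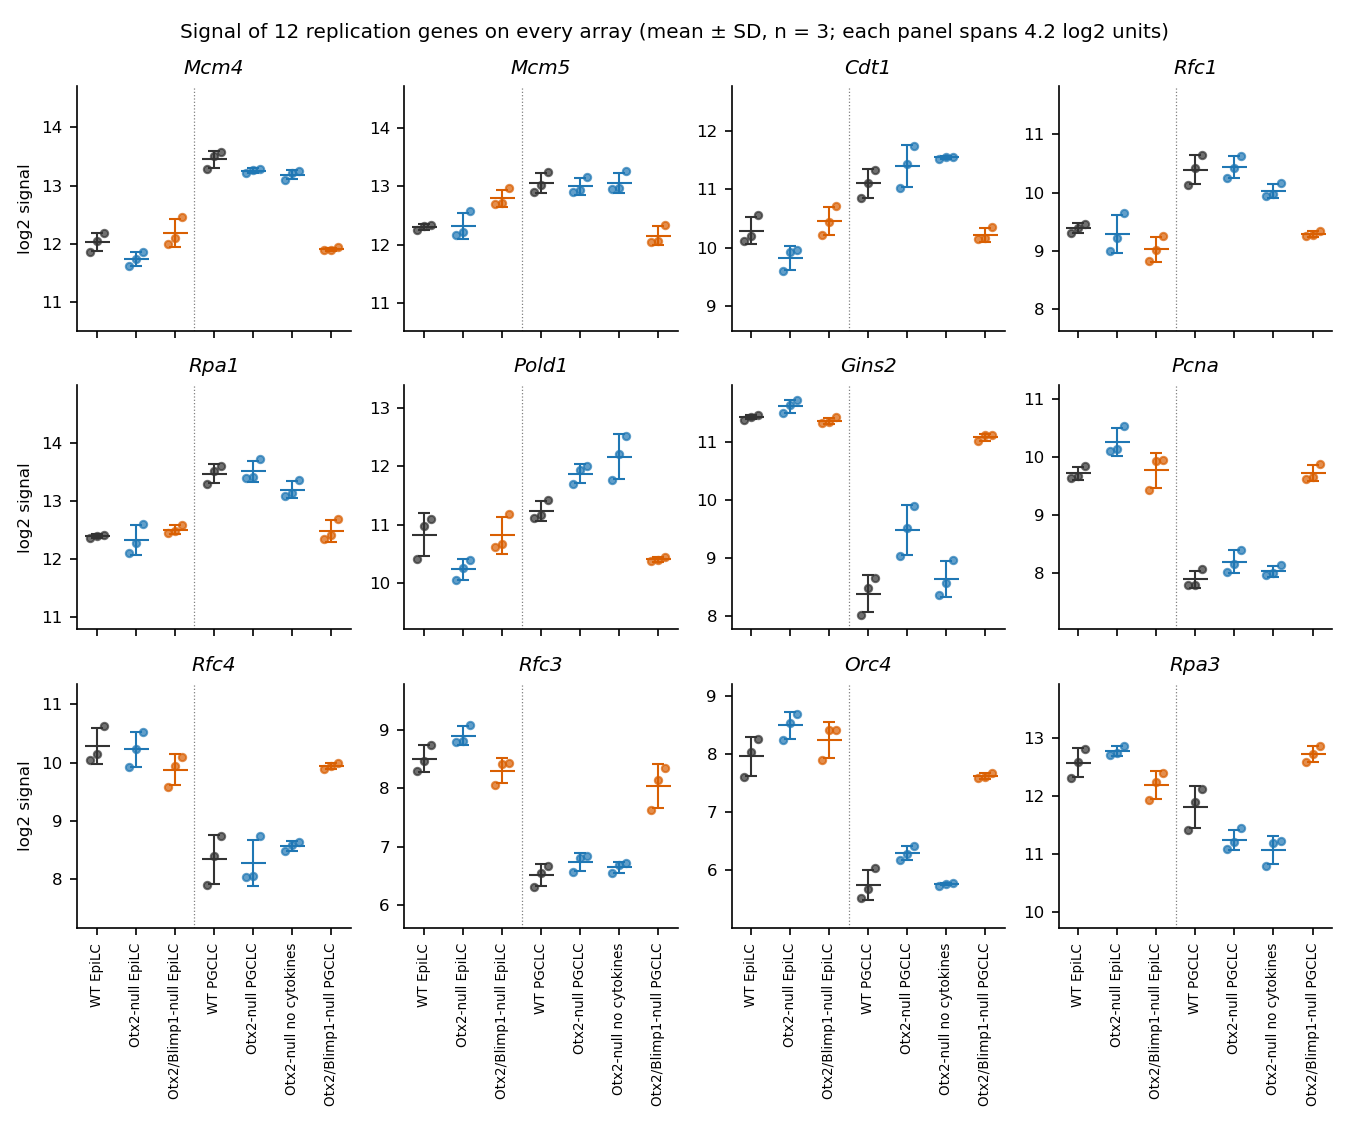
Log2 signal of 12 replication genes on every array, in 7 groups of 3 (points), with mean and SD (bars); black is WT, blue Otx2-null, orange Otx2/Blimp1-null, and the dotted line divides EpiLC from day-6 cells. Pcna lies between 7.81 and 8.41 in the WT, Otx2-null and cytokine-free groups of day 6, and between 9.43 and 10.53 in EpiLC and in Otx2/Blimp1-null PGCLC.

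The same comparison in the Otx2-null line asked whether these changes were present without Otx2. There 14 members were higher and 18 lower against 35.8% and 29.6% of all genes, so both directions were again present inside and outside the members. Arrays did not overlap for 32 members, against 66.7% of all genes. The calls of Orc3 (0.60, limma adjusted p = 0.0498) and Rrm2 (-0.41, adjusted p = 0.0454) were lost on leaving out any of 15 and 9 single arrays. Both were also lost in the authors' normalized values and with only the groups compared. That of Mcm2 (0.53) was lost without Otx2-null EpiLC replicate 3. WT and Otx2-null induction share no array. Called in both, and in the same direction, were 27 members, which is 90% of the 30 WT calls and 84.4% of the 32 Otx2-null calls, and no member was called in opposite directions. Over all genes 80.6% of the WT calls were made in the same direction in the Otx2-null line, so agreement was also high outside the replication genes. Across the 41 members the log2 differences of the 2 lines had a Pearson r of 0.91 and a Spearman rho of 0.91, against 0.87 and 0.86 over all genes. This is a description across genes of 1 array type, and genes are not independent replicates. Mcm4 read 11.86, 11.62 and 11.74 in Otx2-null EpiLC and 13.21, 13.26 and 13.29 in Otx2-null PGCLC, a rise of 1.51 ± 0.14. Pcna read 10.10, 10.14 and 10.53 in EpiLC and 8.02, 8.17 and 8.41 in PGCLC, a fall of 2.06 ± 0.16. For both genes the day-6 arrays were separate from the EpiLC arrays, as in WT. Orc4, Rfc3, Prim2, Gins2 and Rfc4 fell by 2.19, 2.17, 2.16, 2.13 and 1.95.

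A direct test of the difference in induction between Otx2-null and WT called 5 members with a larger value in the Otx2-null line and 3 with a smaller one, against 7.97% and 8.45% of all genes. Pold1, the catalytic subunit of polymerase delta, read 10.40, 10.05 and 10.25 in Otx2-null EpiLC and 11.93, 11.70 and 12.00 in Otx2-null PGCLC. In WT it read 10.98, 10.41 and 11.09 in EpiLC and 11.42, 11.17 and 11.11 in PGCLC. The Otx2-null arrays were further apart, and the difference in induction was 1.24 ± 0.28 (limma adjusted p = 0.00349). Pole rose by 2.13 ± 0.20 in the Otx2-null line, 1.16 ± 0.29 more than in WT (adjusted p = 0.00653). In the authors' normalized values this difference for Pole was 0.09 and did not pass. Pole was detected on 1 of the 3 Otx2-null EpiLC arrays. Its mean there was 5.25, where the lowest signal of a detected probe was 5.26 to 5.31, so both Pole values rest on a baseline near the detection floor. Pold2 differed by 0.11 ± 0.15 in the Otx2-null line, 1.04 ± 0.21 above WT, where it fell. Gins2 fell less in the Otx2-null line (difference 0.90 ± 0.27, adjusted p = 0.0228), a call lost without WT PGCLC replicate 3 or Otx2-null PGCLC replicate 2, where adjusted p reached 0.0769, and also with the mean of all kept probes and with only the groups compared. Cdc45 rose less there (-0.76 ± 0.20, adjusted p = 0.0121), and its change of 0.26 ± 0.14 within the Otx2-null line did not pass. The differences for Cdt1 (0.76, adjusted p = 0.0464), Prim2 (-0.58, adjusted p = 0.0357) and Rpa3 (-0.77, adjusted p = 0.0429) were lost on leaving out any of 13, 7 and 11 single arrays.

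**Figure D3:**
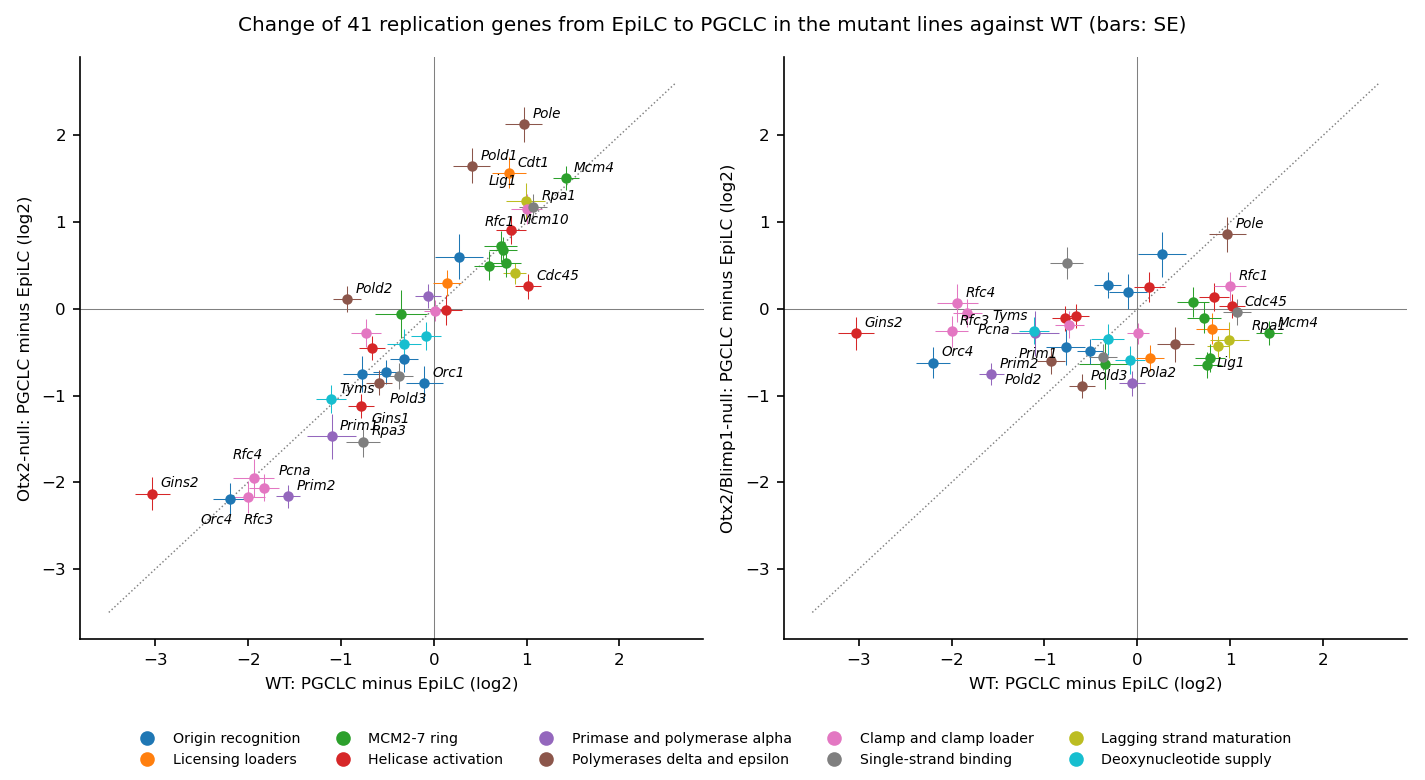
Log2 difference between PGCLC and EpiLC for the 41 tested members in WT (horizontal axis) and, on the vertical axes, in the Otx2-null line (left) and the Otx2/Blimp1-null line (right), with standard errors as bars and roles as colours; the dotted line marks equal change. Otx2-null values follow the line of equal change with r of 0.91, and Otx2/Blimp1-null values lie between -0.89 and 0.86 with r of 0.20, as descriptions across genes.

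Otx2-null cells sorted from aggregates without any cytokine were compared with Otx2-null EpiLC to see whether the changes needed the added factors. In them 14 members were higher and 20 lower, against 35.8% and 30.2% of all genes, and arrays did not overlap for 34, against 67.5%. The calls of Mcm2, Mcm3, Rfc5 and Rrm2 were each lost on leaving out any of 1 or 2 single arrays. Of the 30 members called in WT induction, 28 were called here in the same direction, which is 93.3% of the WT calls and 82.4% of the 34 calls made here. Over all genes that share of the WT calls was 80%, and these comparisons share no array. Gins2 read 8.36, 8.97 and 8.58, Orc4 5.74, 5.78 and 5.77, and Pcna 8.14, 8.00 and 7.97 in these cells. All of these lay below every EpiLC array of the same line, with falls of 2.97 ± 0.19, 2.73 ± 0.18 and 2.22 ± 0.16. Pole, Pold1 and Cdt1 rose by 2.41 ± 0.20, 1.94 ± 0.20 and 1.72 ± 0.18. The Pole value rests on the same Otx2-null EpiLC baseline near the detection floor. Against Otx2-null PGCLC, the same line with cytokines, 1 member was higher (Cdc45, 0.58 ± 0.14) and 2 were lower (Gins2, -0.85 ± 0.19, and Orc4, -0.53 ± 0.18), where 7.37% and 8.38% of all genes were called. For Orc4 this call (adjusted p = 0.0447) was lost when any of 10 single arrays was left out, and with the mean of all its probes the difference was 0.00. With that mean Cdc45 had 0.36, which did not pass (adjusted p = 0.0588).

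Between the PGCLC of the Otx2-null and WT lines, 5 members were higher and 2 lower, against 8.94% and 12.4% of all genes. Gins2 read 9.04, 9.90 and 9.52 in Otx2-null PGCLC, above all 3 WT arrays (1.09 ± 0.19, 2.13-fold, adjusted p = 0.000185). Rfc5 and Pold2 were higher by 0.78 ± 0.16 and 0.63 ± 0.15. Those 3 calls held when each array was left out in turn. The calls of Pold1 (0.64), Orc4 (0.54), Prim2 (-0.39) and Rpa3 (-0.57) were each lost without any of 4 or 5 arrays, with adjusted p of up to 0.156. Cells without cytokines had 4 members higher than WT PGCLC and 4 lower, against 10.2% and 14.2% of all genes, with Pold1 (0.93 ± 0.20), Rpa3 (-0.74 ± 0.18) and Fen1 (-0.58 ± 0.12) among them. These 3 calls held when each array was left out. The calls of Rfc5 (0.57), Pold2 (0.43), Pola2 (0.42), Prim2 (-0.41) and Rrm1 (-0.54) were each lost without 1 or more single arrays, with limma adjusted p of up to 0.165. Germ cell, trophoblast and blood markers also differed between these groups, as given above, and their part in these values was not tested.

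Between lines in EpiLC, fewer members were called than between WT PGCLC and WT EpiLC, and so were fewer of all genes. Otx2-null EpiLC had 4 members higher and 2 lower than WT, against 8.22% and 10.5% of all genes. Pole read 6.48, 6.49 and 6.35 in WT, 5.47, 5.19 and 5.08 in Otx2-null and 5.94, 5.74 and 5.35 in Otx2/Blimp1-null EpiLC. It was detected on 1 of the 3 Otx2-null arrays, near the detection floor. The WT arrays were the highest, with differences from WT of -1.19 ± 0.20 (adjusted p = 0.000156) and -0.76 ± 0.20 (adjusted p = 0.00969). Neither call passed in the authors' normalized values, and the second was also lost without Otx2/Blimp1-null EpiLC replicate 3 (adjusted p = 0.0667). Gins1 was higher than in WT by 0.60 ± 0.14 in Otx2-null and by 0.48 ± 0.14 in Otx2/Blimp1-null EpiLC, 2 values that share the WT arrays. The first call held when each array was left out, and the second was lost without WT EpiLC replicate 2 or Otx2/Blimp1-null EpiLC replicate 3 (adjusted p of up to 0.0721) and with only the groups compared. Otx2/Blimp1-null EpiLC had 5 members higher and 3 lower than Otx2-null EpiLC, against 9.79% and 6.21% of all genes, and 5 higher and 1 lower than WT, against 9.48% and 8.64%. The 8 calls against Otx2-null EpiLC had sizes of 0.45 to 0.63, and each was lost without Otx2/Blimp1-null EpiLC replicate 1, with adjusted p of up to 0.277 over all removals of an array.

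In the line without Otx2 and Blimp1, few replication genes changed between EpiLC and PGCLC in the way of the other lines. Of 41 members 2 were higher and 12 lower, against 20.5% and 22.8% of all genes, and arrays did not overlap for 24, against 51.9%. The members' median was -0.28, where that of all genes was -0.04, and no member changed by more than 2-fold, against 16.6% of all genes. Gins2 read 11.32, 11.34 and 11.42 in EpiLC and 11.11, 11.01 and 11.12 in PGCLC of this line, a difference of -0.28 ± 0.19 (95% interval -0.67 to 0.11). Pcna read 9.43, 9.93 and 9.95 in EpiLC and 9.88, 9.66 and 9.62 in PGCLC, with overlap (-0.05 ± 0.16, 95% interval -0.38 to 0.29). Mcm4 read 12.46, 12.10 and 12.00 in EpiLC and 11.89, 11.94 and 11.89 in PGCLC (-0.28 ± 0.14, adjusted p = 0.113). Rfc4 differed by 0.07 ± 0.22, Rpa1 by -0.03 ± 0.15 and Rfc1 by 0.26 ± 0.17, none past the test.

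The members lower in Otx2/Blimp1-null PGCLC than in EpiLC of that line came from several roles. Pold3, the polymerase delta subunit, read 9.74, 9.66 and 9.68 in EpiLC and 9.11, 8.64 and 8.66 in PGCLC, a fall of 0.89 ± 0.14 (1.85-fold, adjusted p = 1.83e-05). Pola2 read 9.70, 9.25 and 9.28 in EpiLC and 8.71, 8.45 and 8.48 in PGCLC, a fall of 0.86 ± 0.14 (adjusted p = 3.58e-05), where WT had -0.06 ± 0.14. Prim2, Orc4, Pold2, Orc5 and Rpa2 fell here as in WT, by 0.75, 0.62, 0.60, 0.49 and 0.56. With the mean of all kept probes Orc4 differed by -0.10, which did not pass, and Rpa2 was higher by 0.52. Mcm5, Mcm2 and Fen1, which rose in WT, fell by 0.65 ± 0.15, 0.57 ± 0.16 and 0.43 ± 0.12, and Rpa3, which fell in WT, rose by 0.53 ± 0.18. The call of Mcm2 was lost without Otx2/Blimp1-null EpiLC replicate 1 (adjusted p = 0.0606), and that of Rpa3 without that array or without Otx2/Blimp1-null PGCLC replicate 3 (adjusted p of up to 0.113). Pole rose by 0.86 ± 0.20 as in WT, while the authors' normalized values gave 0.11, which did not pass. Between WT and this line, 7 members were called in the same direction and 4 in opposite directions, which together is 11 of the 30 WT calls and of the 14 calls here. Over all genes 40.5% of the WT calls were repeated in the same direction, and of the members' 23.3%. The Pearson r across members was 0.20 and across all genes 0.51.

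The induction changes of the Otx2/Blimp1-null and Otx2-null lines were then tested against each other. The change differed for 27 of 41 members, 12 with a higher and 15 with a lower value in the Otx2/Blimp1-null line, against 20.1% and 28.7% of all genes. The size was over 2-fold for 19 members, against 30.1% of all genes. Rpa3, Rfc4, Pcna and Rfc3 had differences of 2.06 ± 0.26, 2.02 ± 0.31, 2.01 ± 0.23 and 1.90 ± 0.25, and Gins2 of 1.84 ± 0.27 (adjusted p of at most 1.37e-05 for these 5). At the other end lay Pold1 with -2.06 ± 0.28, Cdt1 with -1.81 ± 0.26, Mcm4 with -1.79 ± 0.20 and Lig1 with -1.60 ± 0.29. These 9 calls held in each alternative that was run, including the removal of each array in turn.

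PGCLC of the Otx2/Blimp1-null line were also compared directly with those of the other lines. Against Otx2-null PGCLC, which differ by Blimp1, 13 members were higher and 14 lower, where 20% and 28.3% of all genes were called. Arrays did not overlap for 31 members, against 57% of all genes. The members' median was -0.09 and that of all genes -0.07, and 13 members differed by more than 2-fold, against 17.7% of all genes. Higher were Rfc4 (1.67 ± 0.22), Gins2 (1.60 ± 0.19), Pcna (1.52 ± 0.16), Rpa3 (1.48 ± 0.18), Orc4 (1.32 ± 0.18), Rfc3 (1.30 ± 0.18) and Prim2 (1.16 ± 0.13). Lower were Pold1 (-1.48 ± 0.20), Mcm4 (-1.35 ± 0.14), Lig1 (-1.27 ± 0.21), Cdt1 (-1.18 ± 0.18), Rfc1 (-1.15 ± 0.17) and Rpa1 (-1.03 ± 0.15). The Otx2-null PGCLC arrays also enter the Otx2-null induction with the opposite sign, so opposite directions in these comparisons are partly built in and are not read as a result. By role, 3 members of origin recognition were higher and none lower, both loaders and 3 ring subunits were lower and none higher, and the clamp and its loader had 3 higher and 1 lower. The calls of Orc1, Orc6, Pold2 and Tyms were lost on leaving out 1 or more of the arrays compared, with adjusted p of up to 0.15. The germ cell, blood and trophoblast marker sums were lower in Otx2/Blimp1-null than in Otx2-null PGCLC, and their part in these values was not tested.

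Against WT PGCLC, 16 members were higher and 16 lower, where 22.5% and 34.2% of all genes were called. Arrays did not overlap for 35 members, against 62.9% of all genes. Gins2 read 11.11, 11.01 and 11.12 in Otx2/Blimp1-null and 8.66, 8.49 and 8.03 in WT PGCLC. It was higher by 2.69 ± 0.19 (6.44-fold, adjusted p = 9.72e-11) with no overlap. Orc4, Pcna, Rfc4, Rfc3 and Gins1 were higher by 1.86, 1.82, 1.61, 1.53 and 1.15. Mcm4 was lower by 1.55 ± 0.14 (2.92-fold, adjusted p = 3.74e-09), and Rfc1, Lig1, Mcm2 and Rpa1 had differences of -1.11, -1.11, -0.99 and -0.99. Mcm7 and Rfc2 passed the test in 0 of the 12 comparisons of 2 groups on the probes used.

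**Figure D4:**
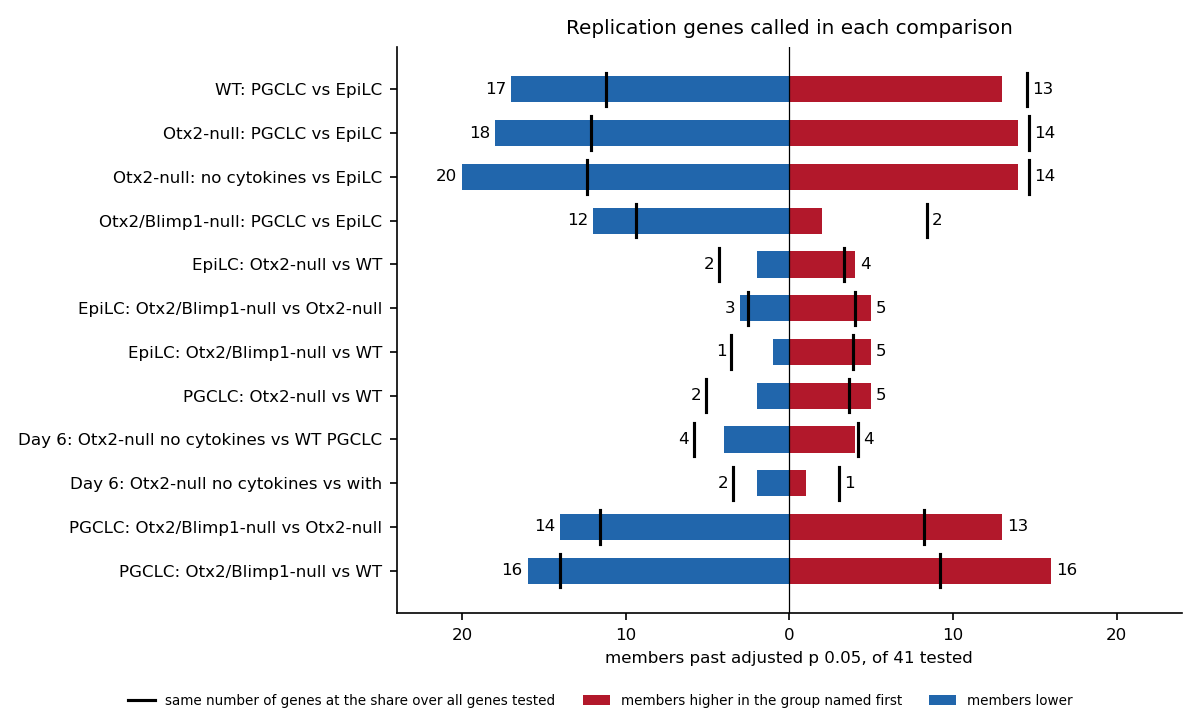
Number of the 41 tested replication genes called higher (red, right) and lower (blue, left) in the group named first, for 12 comparisons, with ticks at the number that the share over all genes would give. In WT PGCLC against EpiLC 13 were higher and 17 lower, and in the Otx2/Blimp1-null line 2 were higher and 12 lower.

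Probes of the same gene did not always move together. Of the 41 members, 20 had more than 1 probe past the filter, with 34 further probes, and 20 of these, from 13 genes, were detected on all 21 arrays. In WT induction 14 of those 20 belonged to called members, and 9 gave the same call, 4 did not pass and 1 gave the opposite call. Over all 34 further probes only 14 gave the same result as the probe used, where not passing on both counts as the same. The opposite call was given by 2 of the 34, the second being a Mcm4 probe detected on 11 arrays (ILMN_2752009, -0.57, adjusted p = 0.0213). Gins2 was lower by 3.11 and 2.67 on its 2 further probes, Rfc4 by 1.79, Prim2 by 2.06 and Tyms by 2.06 on further probes detected on all arrays. Mcm6 gave 0.80 on one and -0.05 on another. The opposite call among the probes detected on all arrays was Mcm10, with 0.83 on the probe used (ILMN_2970532), 0.82 on ILMN_2679464 and -1.12 on ILMN_1252173. In the Otx2-null line these Mcm10 probes gave 0.91, -0.01 and -2.50. The direction of Mcm10 therefore depended on the probe. Rfc2 gave 0.01 on the probe used and 1.05, -0.50 and -0.22 on its others, and a further Mcm7 probe gave -1.60 where the probe used gave -0.35. Rpa2 gave -0.56 on the probe used and 2.43 on ILMN_2543737 in the Otx2/Blimp1-null induction. No probe positions were used here, so which transcripts each probe reads is not known.

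**Figure D5:**
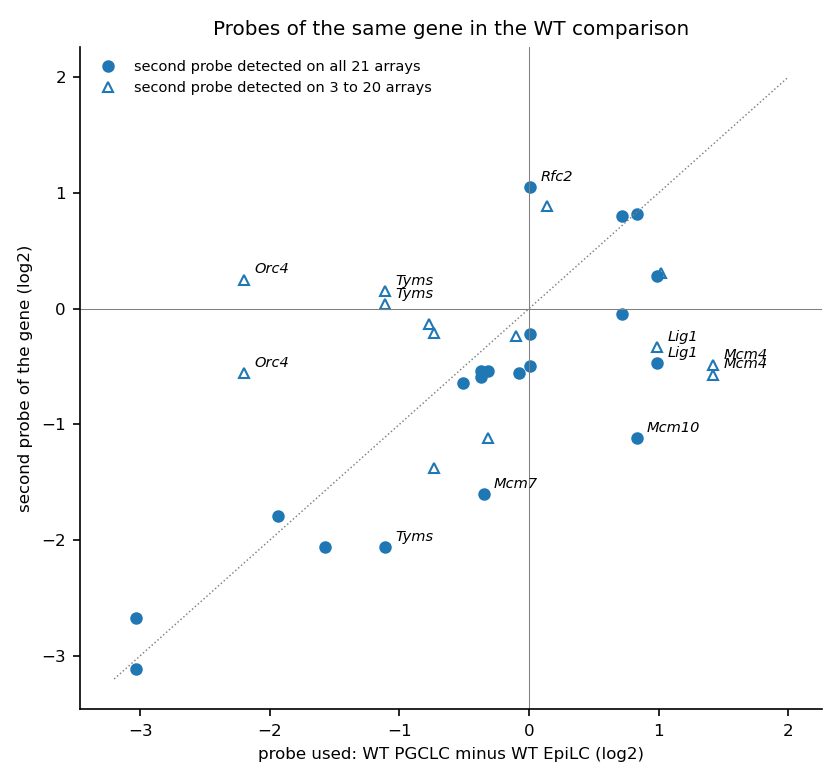
Log2 difference between WT PGCLC and WT EpiLC on the probe used for a gene (horizontal axis) and on each of its 34 further probes (vertical axis), filled where the further probe was detected on all 21 arrays and open where on fewer; the dotted line marks equal values. Gins2 lies close to the line at -3.03 against -3.11 and -2.67, and Mcm10 stands apart at 0.83 against -1.12.

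Other genes of replication and the cell cycle were counted from lists. The counts below stand beside 35.4% of all genes higher and 27.4% lower in WT PGCLC, and nothing particular to a list is read from them. Of 28 tested further replication factors, 9 were higher and 11 lower, including Clspn, a fork checkpoint mediator (1.58 ± 0.13), Chaf1a, a histone chaperone subunit (1.52 ± 0.17), and Gmnn, the inhibitor of Cdt1 (-1.69 ± 0.21). Of 18 further genes of nucleotide supply, 3 were higher and 9 lower, including thymidine kinase Tk1 (-2.13 ± 0.13) and thymidylate kinase Dtymk (-1.61 ± 0.15). Of 23 E2F and S-phase control genes, 8 were higher and 5 lower. Ccnd3, a D-type cyclin, was higher by 2.49 ± 0.14, and the activator E2f1 by 1.87 ± 0.15. Ccne2, an E-type cyclin, was lower by 2.64 ± 0.23. Of 6 cyclin-dependent kinase inhibitors 2 were higher and 2 lower, of 18 mitotic genes 8 and 5, and of 15 replication stress and repair genes 4 and 5. Mybl2, a cell cycle transcription factor, rose by 4.01 ± 0.15, and the checkpoint kinase Chek1 fell by 1.64 ± 0.18.

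In Otx2/Blimp1-null against Otx2-null PGCLC, where 20% of all genes were higher and 28.3% lower, 7 of the 28 further replication factors were higher and 13 lower, with Gmnn at 1.78 ± 0.21 and Clspn at -1.46 ± 0.13. Of the nucleotide supply genes 4 were higher and 7 lower, with Tk1 at 1.14 ± 0.13 and Cad, which starts pyrimidine synthesis, at -1.48 ± 0.19. Of the E2F and S-phase control genes 3 were higher and 12 lower, with E2f1 at -1.27 ± 0.15 and Ccnd3 at -1.06 ± 0.14. Of the mitotic genes 2 were higher and 11 lower, with Mad2l1, a spindle checkpoint gene, at 1.44 ± 0.14 and Mybl2 at -1.44 ± 0.15. Of the repair genes 3 were higher and 4 lower, with Msh6 of mismatch repair at -1.40 ± 0.17. Of the kinase inhibitors 2 were higher and 1 lower.

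Members that rose and fell also differed in median gene length, though their ranges overlapped and the difference was not tested. The median genomic span was 22.1 kb (5.12 to 76.8) for the 13 members that rose in WT PGCLC and 13.8 kb (3.21 to 216) for the 17 that fell. Over all genes the medians were 28.7 kb and 15 kb, so the same order was present outside the replication genes. The part of gene length in the results was not tested for cause, and values with the trend on span removed are given with the processing alternatives.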

How the data were processed

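RNA of 21 samples was read on Illumina bead arrays. The deposited intensity values were already background-subtracted, as negative values show. Their highest value was 30894.6 on every array and their lowest -19.6 or -18.7, so they had also been brought to a shared range between arrays and were not raw. The authors' second table holds normalized log2 values with a detection p-value per probe, per the file headers. It ranked the probes of an array alike (rank correlation 1, except on the array named next), so the 2 tables are not independent. limma is named in the submitters' processing notes with no version. The intensity column of Otx2-null PGCLC replicate 2 was in another probe order (rank correlation 0.00547 with its normalized column) and was put back by rank, so its values rest on that match. These already processed intensities were then normalized with neqc (offset 16). A probe was kept if its detection p was under 0.05 on 3 or more of the 21 arrays. This left 21647 of 45281 probes, of which 18156 named a gene. In the annotation 34885 probes name 1 gene, 18 several and 10378 none here. The kept probe with the highest mean stood for each of 11649 genes. limma 3.58.1 in R 4.3.3 (lmFit, eBayes, group only, all 21 arrays, two-sided) tested 12 comparisons of 2 groups and 2 differences of induction, with Benjamini-Hochberg adjustment over all genes and a threshold of 0.05. Errors are standard errors of that fit. Tables and plots used Python 3.11.15, pandas 2.3.3, numpy 2.4.6 and matplotlib 3.10.9, and the fit was tested on simulated data. The number of arrays, 3 per group, limits the precision.

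All members could be named, with full values for those with the largest change in each direction and no overlap, and up to 4 genes of each other list by smallest p. The members and lists were chosen with earlier results of these data known. Same-numbered replicates correlated above 0.1 in every pair only for Otx2-null against WT EpiLC (0.14, 0.29 and 0.16). The pairing there comes from the data and not from the labels.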

Additional observations from a re-analysis of the deposited data

Results flagged for a closer look

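Replication genes whose change from EpiLC to PGCLC differed between lines by a direct limma test of the difference (adjusted p under 0.05 over all genes) are given here, with the log2 difference of the changes in parentheses. Between the Otx2-null line and WT, the value was higher in the Otx2-null line for Pold1 (1.24), Pole (1.16), Pold2 (1.04), Gins2 (0.90) and Cdt1 (0.76). It was lower there for Prim2 (-0.58), Cdc45 (-0.76) and Rpa3 (-0.77). The Pole values here and below rest on an Otx2-null EpiLC baseline near the detection floor.

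Between the Otx2/Blimp1-null and Otx2-null lines, the value was higher in the Otx2/Blimp1-null line for Rpa3 (2.06), Rfc4 (2.02), Pcna (2.01), Rfc3 (1.90), Gins2 (1.84), Orc4 (1.57), Prim2 (1.41), Prim1 (1.19), Orc1 (1.07), Gins1 (1.01), Orc6 (0.86) and Tyms (0.79). It was lower there for Pold2 (-0.71), Mcm10 (-0.77), Mcm6 (-0.81), Fen1 (-0.84), Cdc6 (-0.86), Rfc1 (-0.88), Pola2 (-1.01), Mcm2 (-1.10), Rpa1 (-1.21), Pole (-1.27), Mcm5 (-1.32), Lig1 (-1.60), Mcm4 (-1.79), Cdt1 (-1.81) and Pold1 (-2.06). None of the 27 calls between these lines was lost when any 1 array was left out, but 6 were lost in another setting. In the authors' normalized values Prim1 had 0.39 (adjusted p = 0.18) and Pole -1.56 (adjusted p = 0.0587). With the mean of all kept probes Orc1 had 0.47 (adjusted p = 0.116), and Mcm10 turned to 0.34 (adjusted p = 0.0735). With the trend on gene span removed Mcm6 had -0.58 (adjusted p = 0.0556) and Rfc1 -0.49 (adjusted p = 0.0786). Of the 8 calls between the Otx2-null line and WT, Pold1, Pole, Pold2 and Cdc45 held when any array was left out and the other 4 did not.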

How the results depend on the processing

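Over 14 comparisons, 242 values of replication genes passed the test. Of these, 241 also passed with the replicate number as a block, which lost only Orc3 in Otx2-null induction (0.60). With the stricter detection filter 242 passed, with an offset of 50 239, without a detection filter 233, with array weights 227, with the trend on gene span removed (chosen after seeing the data) 224, 221 in the authors' normalized table, with only the groups compared 219 and with the mean of all kept probes 215. Leaving out each of 21 arrays kept 4887 of 5082, with no change of sign. The cause of each change was not tested.

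With the mean of all kept probes Mcm10 turned to -0.53 in Otx2-null induction, -0.72 without cytokines, 0.09 between Otx2/Blimp1-null and Otx2-null PGCLC and 0.34 for the difference of their inductions. Rpa2 turned to 0.52 in Otx2/Blimp1-null induction, and Orc4 was 0 between Otx2-null cells without and with cytokines.

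Counts that moved by more than 1.5 times were small. With the span trend removed, 4 members were higher in Otx2/Blimp1-null induction. In Otx2-null against WT PGCLC the lower members numbered 4 (authors' table), 4 (offset 50), 1 (only the groups compared), 5 (array weights) and 1 (span). Without cytokines against WT PGCLC, array weights gave 7 higher and 9 lower. Against Otx2-null PGCLC, 2 were higher in the authors' table, with the offset of 50, without a filter, with only the groups compared and with array weights, and 5 were lower with array weights. In Otx2-null against WT EpiLC, 1 was higher and 1 lower with only the groups compared and with array weights, and 1 was lower in the authors' table. In Otx2/Blimp1-null against Otx2-null EpiLC, limma called 0 higher and 0 lower with only the groups compared and with array weights, and 1 higher with the span trend removed. In Otx2/Blimp1-null against WT EpiLC, 3 were higher with only the groups compared and 0 lower in the authors' table. For the difference of induction between Otx2-null and WT, 3 were higher in the authors' table and with only the groups compared, and 1 was lower with only the groups compared and with the span trend removed.

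Leaving out 1 array gave 1 to 3 higher in Otx2/Blimp1-null induction; 3 to 5 higher and 0 to 2 lower in Otx2-null against WT PGCLC; 1 to 4 higher without cytokines against WT PGCLC; and 1 to 2 higher and 1 to 3 lower against Otx2-null PGCLC. It gave 1 to 4 higher and 1 to 3 lower in Otx2-null against WT EpiLC, 0 to 5 higher and 0 to 3 lower in Otx2/Blimp1-null against Otx2-null EpiLC, 2 to 6 higher and 0 to 1 lower against WT EpiLC, and 1 to 4 lower for the difference of induction between Otx2-null and WT.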
